A study of Mus musculus with 14 samples.

Results

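The 10 genes described here, Adipoq, Lep, Retn, Cfd, Plin1, Plin4, Cidec, Pck1, Car3 and Adig, are transcribed at high levels in mature fat cells, and were taken by symbol from both gene tables of a mouse muscle study. All 10 are among the 56953 genes listed after BaCl2 injury, where 9 had at least 1 count and 4 had enough counts to be tested. In the glycerol table of 14330 genes, 4 were listed (Adipoq, Plin1, Plin4 and Car3) and 6 were not. After glycerol the 4 listed genes had higher medians in SMA libraries than in WT libraries, and none passed the test across all genes. After BaCl2 Plin1 was lower in every SMA library than in any WT library, as were 13.1% of the genes tested, again without passing. The genotype effect on Plin1 and Car3 differed between the injuries, as it did for 10.5% of all genes. The injury is also the batch.

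The libraries come from fibro-adipogenic progenitors (FAPs), stromal cells of skeletal muscle that can turn into fat cells or matrix-producing cells. They were sorted magnetically (MACS) from the tibialis anterior (TA) muscle 3 days after injury, and RNA was extracted from the fresh cells. The groups are 4 glycerol-injured SMA libraries, 4 glycerol-injured WT libraries, 3 BaCl2-injured SMA libraries and 3 BaCl2-injured WT libraries. SMA is read here as spinal muscular atrophy, and the labels name neither the allele, the age or sex of the mice, nor the antibodies of the sort. They do not say whether libraries of 1 group came from separate mice, so the p-values measure the spread between these libraries, which may be technical. Their batch entry is the injury itself, which means that an effect of the injury and one of the batch cannot be told apart.

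A white fat cell stores triglyceride in a single large droplet, whose surface is covered by perilipins, and it secretes hormones into the blood. The genes for these functions are switched on late in differentiation, under PPARγ and C/EBPα, after the progenitor has left the cell cycle. In muscle, fat cells that appear between the fibres are derived from FAPs, and glycerol injury is a standard way to bring them about, whereas BaCl2 injury is followed by regeneration with little fat.

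The stretches below lie before the annotated starts of Adipoq, Plin1 and Plin4, and are shown because these 3 genes have values after both injuries and a promoter in the RefSeq set (GRCm38.p6). They are written in the direction of transcription. Capitals mark a match to the C/EBP core TTGCNNAA.
Adipoq, chr16:23146286-23146535, plus strand: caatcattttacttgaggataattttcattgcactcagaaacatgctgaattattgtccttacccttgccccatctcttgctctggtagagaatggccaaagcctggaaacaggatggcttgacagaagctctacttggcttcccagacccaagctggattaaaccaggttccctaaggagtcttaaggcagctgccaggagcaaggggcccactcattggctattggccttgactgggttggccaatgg
Plin1, chr7:79732904-79733026, minus strand: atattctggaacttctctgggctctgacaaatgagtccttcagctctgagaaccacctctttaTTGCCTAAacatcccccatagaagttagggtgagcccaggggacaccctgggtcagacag
Plin4, chr17:56109804-56110032, minus strand: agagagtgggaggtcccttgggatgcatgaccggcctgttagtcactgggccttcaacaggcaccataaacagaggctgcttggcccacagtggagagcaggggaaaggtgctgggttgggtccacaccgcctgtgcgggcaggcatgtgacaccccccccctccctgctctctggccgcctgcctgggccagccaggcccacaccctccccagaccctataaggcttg

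Both strands of the 250 bases before each RefSeq start were searched for 2 motifs, the nuclear receptor half-site AGGTCA and the C/EBP core TTGCNNAA. Plin1 held 2 C/EBP core matches, at positions -187 (shown) and -58 from the start. Adipoq and Plin4 held 0 matches to either motif. Across all 32851 RefSeq windows of this length, 9.56% held the C/EBP core and 14.02% the half-site. A match is a description of the letters only.

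After BaCl2 the library totals ran from 97715538 to 136437776 counts. The glycerol table holds the authors' normalized counts, whose depth is unknown, and levels in one table are not on the scale of the other. The FAP markers were abundant in all 14 libraries, and the marker sums of some cell types, FAPs after BaCl2 included, differed with genotype. Summed macrophage markers (9 of 9 listed) were 106349 to 262406 normalized counts in glycerol SMA libraries and 95259 to 124652 in glycerol WT libraries. After BaCl2 they were 1738 to 2721 CPM in SMA libraries and 990 to 1358 CPM in WT libraries. CPM are counts scaled to the library total and its TMM factor. After this injury the 10 FAP markers summed to 40689 to 53731 CPM in SMA libraries and 60668 to 67128 CPM in WT libraries. Col1a1 and Col3a1 made up most of the FAP sums, at 17388 to 25654 and 19158 to 23699 CPM in BaCl2 SMA libraries. Both were lower in every BaCl2 SMA library than in any BaCl2 WT library, as were Ly6a, Dcn and Lum. Pdgfra, Cd34, Pi16, Dpp4 and Gsn overlapped between genotypes. Summed neutrophil markers, of which Ly6g and Retnlg were not listed after glycerol, did not overlap between genotypes in either table. The sums were 1183 to 2084 normalized counts in glycerol SMA libraries and 619 to 1078 in glycerol WT libraries. After BaCl2 they were 14.96 to 27.9 CPM in SMA libraries and 7.65 to 10.6 CPM in WT libraries. Csf3r made up most of these sums (775 to 1304 in glycerol SMA libraries), whereas S100a8 and S100a9 overlapped between genotypes in both tables. Of all genes, 14.1% had no overlap after glycerol and 25.3% had none after BaCl2. Schwann cell markers were at 24.5 to 30.8 CPM in BaCl2 SMA libraries and 12.6 to 18.1 CPM in BaCl2 WT libraries, and overlapped after glycerol. The part of these cells in the results on fat cell genes was not tested.

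Adipoq encodes adiponectin, a hormone secreted almost only by fat cells. After glycerol its normalized counts were 46.6, 21.2, 36.5 and 8.36 in SMA libraries 1 to 4, against 5.83, 3.09, 5.99 and 10.9 in WT libraries 1 to 4. SMA libraries 1, 2 and 3 lay above every WT library, and SMA library 4 lay below WT library 4. The means were 28.2 ± 16.8 in SMA libraries and 6.44 ± 3.24 in WT libraries (SD, n = 4 each), a ratio of 4.37. The log2 fold change, of log2(value + 1), was 1.83 (SE 0.56, limma adjusted p = 0.101), and the exact two-sided permutation p was 0.0571, where 0.0286 is the smallest that 4 libraries against 4 allow. With a pseudocount of 10 in place of 1 the log2 fold change was 1.11.

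Plin1 encodes perilipin 1, the droplet coat of fat cells that gates the access of lipases. After glycerol its normalized counts were 336, 122, 253 and 55.5 in SMA libraries 1 to 4, against 10.9, 55.5, 117 and 31.7 in WT libraries 1 to 4. SMA libraries 1, 2 and 3 were again above every WT library, and SMA library 4 was level with WT library 2 and below WT library 3. The means were 192 ± 126 in SMA libraries and 53.7 ± 45.7 in WT libraries (SD, n = 4 each). The log2 fold change was 1.96 (SE 0.74, limma adjusted p = 0.156), with an exact permutation p of 0.0571.

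Plin4 encodes perilipin 4, which coats small and newly made droplets. Its normalized counts were 66.9, 75.7, 133 and 34.98 in SMA libraries 1 to 4, against 0, 52.3, 47.5 and 0 in WT libraries 1 to 4. WT libraries 1 and 4 are listed at 0, 2 of 83 such values in the table, and a listed 0 can be a failed estimate, so the group mean is not used. SMA library 4 lay below WT libraries 2 and 3. The log2 fold change was 3.31 (SE 1.38, limma adjusted p = 0.190), with an exact permutation p of 0.114, and it rests on the zeros: with a pseudocount of 10 it was 1.72. The exons of Plin4 also overlap those of Hdgfl2 on the other strand in GENCODE vM21, and the sources used here do not state whether counting used the strand, so its values are uncertain.

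Car3 encodes carbonic anhydrase 3, a cytosolic enzyme abundant in fat cells and also in slow muscle fibres. After glycerol its normalized counts were 93.3, 72.7, 165 and 59.1 in SMA libraries 1 to 4, against 9.83, 11.2, 37.2 and 40.7 in WT libraries 1 to 4. Every SMA library lay above every WT library, which was true of 6.59% of the genes of the table (in 7.54% every SMA library lay below). The means were 97.5 ± 47.1 in SMA libraries and 24.7 ± 16.5 in WT libraries (SD, n = 4 each), a ratio of 3.94. The log2 fold change was 2.09 (SE 0.52, limma adjusted p = 0.0645), and the exact permutation p of 0.0286 is the smallest possible. Summed muscle fibre markers (8 of 11 listed, with Myh1, Myh2 and Myh4 not listed) were 749 to 838 normalized counts in SMA libraries and 680 to 808 in WT libraries. Eno3 was the largest part of that sum, at 382 to 468 in SMA libraries. Tnnt3 was higher in every SMA library (165 to 179, against 124 to 159), and the other listed markers overlapped. The list was not chosen for slow fibres, so the part of such fibres in the Car3 values was not tested.

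**Figure D1:**
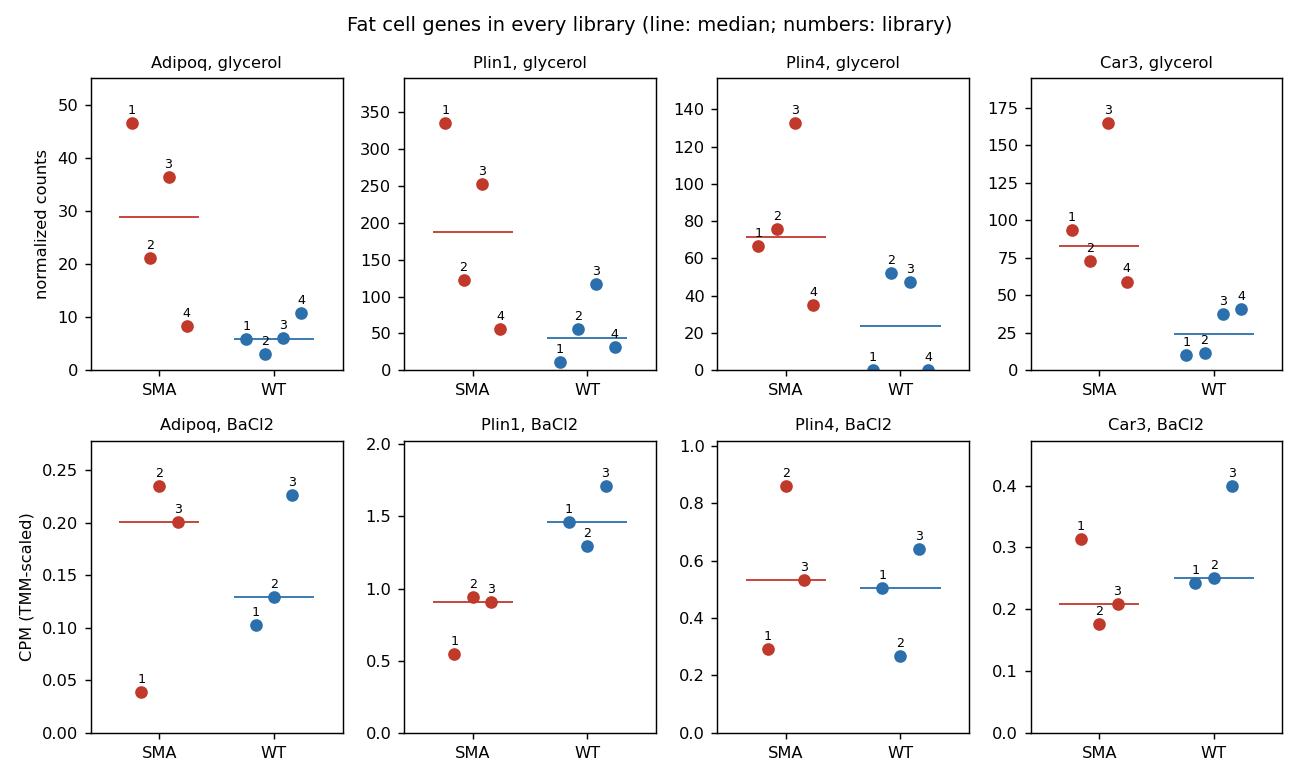
Level of the 4 tested fat cell genes in every library, as normalized counts after glycerol (top) and as TMM-scaled CPM after BaCl2 (bottom), with SMA libraries left of WT libraries, a line at the group median and the library number at each point. After glycerol SMA libraries 1 to 3 stand above all WT libraries for each gene, and after BaCl2 the groups separate for Plin1, with SMA lower.

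Of the 4 members listed after glycerol, 0 passed the test, where 2.87% of all 14330 genes did (1.7% higher and 1.17% lower), and all 4 had a positive log2 fold change, against 50.0% of all genes. A gene may have entered that table because it was high in 1 group, and 6 members are not in it, so the shared direction is a description of those 4. At an unadjusted p under 0.05 all 4 would count (0.00943 for Adipoq, 0.0264 for Plin1, 0.0391 for Plin4 and 0.00291 for Car3 by limma). The authors' deposited table calls Adipoq (log2 fold change 2.12, adjusted p = 0.0162) and Car3 (1.96, adjusted p = 0.00312), and not Plin1 (1.84, adjusted p = 0.121) or Plin4 (1.64, adjusted p = 0.580). It calls 12.5% of its genes (7.28% higher). Scaling the libraries to their FAP markers, an alternative added after seeing the data, called 1.13% of all genes higher. By limma it called Plin1 (adjusted p = 0.000164), Plin4 (1.24e-07) and Car3 (0.000522), with log2 fold changes of 1.78, 3.13 and 1.91. The standard errors were smaller (0.48 for Plin4, against 1.38). Limma draws the variance of each gene toward a trend over all genes, so a smaller error here is not a smaller spread between libraries. Without this scaling the exact permutation p of Plin4 was 0.114.

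Within the SMA group the fat cell genes and the macrophage markers ranked the libraries differently. Summed without Plin4, because of its listed zeros, Adipoq, Plin1 and Car3 reached 476, 216, 454 and 123 normalized counts in SMA libraries 1 to 4, and 26.6, 69.7, 160 and 83.3 in WT libraries 1 to 4. SMA library 3 had the next highest sum after SMA library 1 and the lowest macrophage sum of its group, ranking 6 of the 8 libraries, and SMA library 4 had the lowest fat cell sum of its group and the highest macrophage sum. Summed endothelial markers (8 of 8 listed) were 7049 to 9067 normalized counts in SMA libraries and 10902 to 15899 in WT libraries. By the limma test 3 of them fell (Egfl7, Tie1 and Cdh5), where 1.17% of all genes did, and Tek alone had a positive value (0.08). After BaCl2 all 8 had positive values, against 49.4% of all genes, and 0 passed. Of 9 macrophage markers 2 rose after glycerol (Ptprc and Csf1r), where 1.7% of all genes did. Relative to the FAP marker Pdgfra, the receptor used to define these cells, Car3 stood at 9.15 to 21.3 per 10000 Pdgfra in SMA libraries and 1.43 to 5.66 in WT libraries. In bulk RNA a few cells with much of a transcript and many cells with little of it cannot be told apart.

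**Figure D2:**
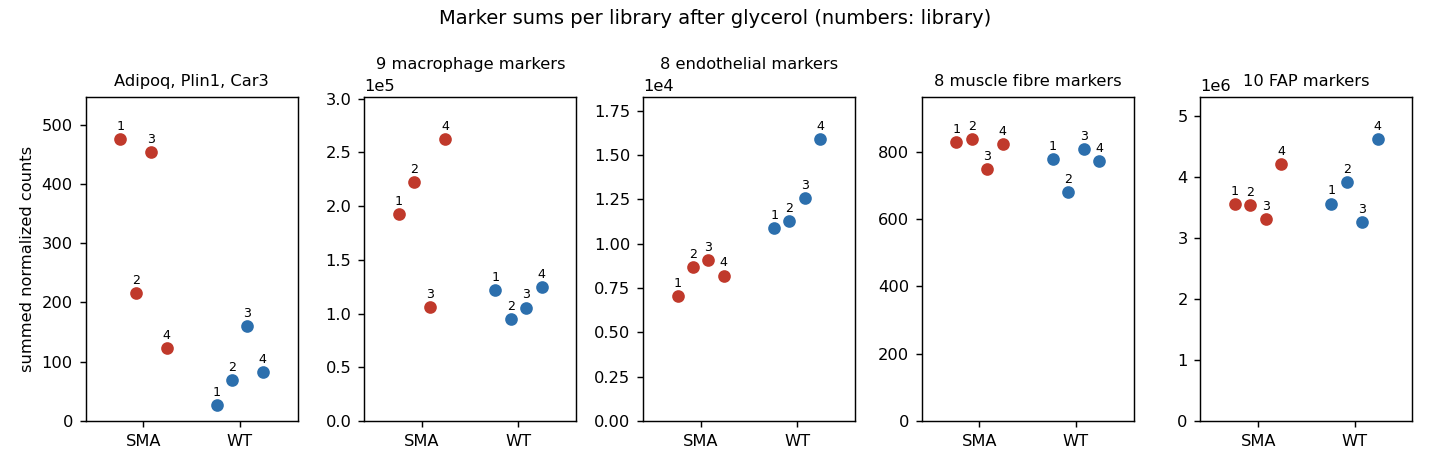
Summed normalized counts after glycerol of Adipoq, Plin1 and Car3 together and of macrophage, endothelial, muscle fibre and FAP markers, 1 point per library with its number, SMA left of WT, each panel with its own linear axis from 0. SMA library 3, at 454 for the fat cell genes, is the lowest of the SMA group for the macrophage markers, and SMA library 4, at 123, is the highest for them.

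After BaCl2 the same 4 genes were low but counted in every library, with means of 0.159 to 0.798 CPM in SMA libraries and 0.153 to 1.49 CPM in WT libraries. Plin1 had 56, 128 and 117 counts in SMA libraries 1 to 3, against 199, 150 and 227 counts in WT libraries 1 to 3. All 3 SMA libraries were lower than any WT library, as in 13.1% of the 20119 genes tested (25.3% had no overlap in either direction). Scaled by TMM, the means were 0.798 ± 0.217 CPM in SMA libraries and 1.49 ± 0.210 CPM in WT libraries (SD, n = 3 each), so that SMA stood at 53.6% of WT. The log2 fold change was -0.89 (SE 0.25, edgeR quasi-likelihood adjusted p = 0.0774), and the exact permutation p of 0.1 is the smallest that 3 against 3 allow. Relative to 10000 Pdgfra the groups did not overlap either, at 7.68 to 10.3 in SMA libraries and 14.1 to 18.2 in WT libraries. Pdgfra itself stood at -0.04, whereas Col3a1, Ly6a and Lum, other FAP markers, fell, and scaled to all 10 FAP markers, an alternative added after seeing the data, Plin1 stood at -0.73 (edgeR adjusted p = 0.0965). The call depends on the tool: Plin1 passed with DESeq2 (adjusted p = 0.0177, given for 2 of the 4 genes, where 4.77% of its genes were called lower) and without the low-count filter in edgeR (adjusted p = 0.0225, where 2.38% were).

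The other 3 genes showed overlapping groups after BaCl2. Adipoq had 4, 32 and 26 counts in SMA libraries 1 to 3, against 14, 15 and 30 in WT libraries, and its log2 fold change of 0.07 (SE 0.64, edgeR adjusted p = 0.972) changes sign when single libraries are left out. Plin4 had 30, 117 and 69 counts in SMA libraries, against 69, 31 and 85 in WT libraries (log2 fold change 0.26, SE 0.44, edgeR adjusted p = 0.816). SMA library 2 was the highest for both and SMA library 1 the lowest of its group for both. Car3 had 32, 24 and 27 counts in SMA libraries, against 33, 29 and 53 in WT libraries (log2 fold change -0.36, SE 0.42, edgeR adjusted p = 0.708). Of the 4 members tested after BaCl2, 0 passed, against 4.29% of all genes (2.73% higher and 1.56% lower), and 2 had a positive value, against 49.4% of all genes. Taken alone, without adjustment, edgeR's p for Plin1 was 0.00504 and those of the other 3 were 0.406 or more. The authors' deposited table gives no fold change or p for any of the 10 genes after BaCl2, while 12279 genes have one.

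The 6 remaining members had 0 to 26 counts in a library after BaCl2 and were too low to test. The intervals that follow are exact 95% Poisson intervals of summed counts, and the limit given for 0 counts is 3 counts over the group; both cover counting error only. Of the secreted proteins, Cfd (adipsin, the complement protease factor D) had 2, 8 and 1 counts in SMA libraries 1 to 3, against 5, 1 and 5 in WT libraries. Both groups summed to 11 counts (interval 5.49 to 19.7), which is 0.0307 CPM in SMA libraries and 0.0279 CPM in WT libraries. For such summed counts, CPM is taken over the summed library totals, without TMM. Retn, the hormone resistin, had 0 counts in the SMA libraries, which allows up to 0.00836 CPM, and 6, 0 and 0 counts in WT libraries 1 to 3. Lep, the satiety hormone leptin, had 0 counts in all 6 libraries, which allows up to 0.00836 CPM in SMA libraries and 0.00761 CPM in WT libraries.

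Cidec, which promotes droplet fusion into the single large droplet of white fat, had 1, 26 and 2 counts in SMA libraries 1 to 3, against 0, 6 and 4 in WT libraries. SMA library 2 alone holds 26 of the 29 SMA counts (interval 19.4 to 41.6), against 10 in WT libraries (4.80 to 18.4), so the larger SMA sum is that of 1 library. Pck1, the cytosolic enzyme of glyceroneogenesis, had 2, 10 and 2 counts in SMA libraries, against 0, 4 and 6 in WT libraries. Adig (adipogenin), a small membrane protein of fat cells, had 4, 7 and 1 counts in SMA libraries, against 11, 2 and 5 in WT libraries. The groups overlapped for each of these 3 genes, and their exact permutation p-values were 0.8, 0.7 and 0.7. SMA library 2 was the highest of the 6 libraries for Adipoq, Cfd, Plin4, Cidec and Pck1, but not for Plin1, Car3, Retn or Adig.

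**Figure D3:**
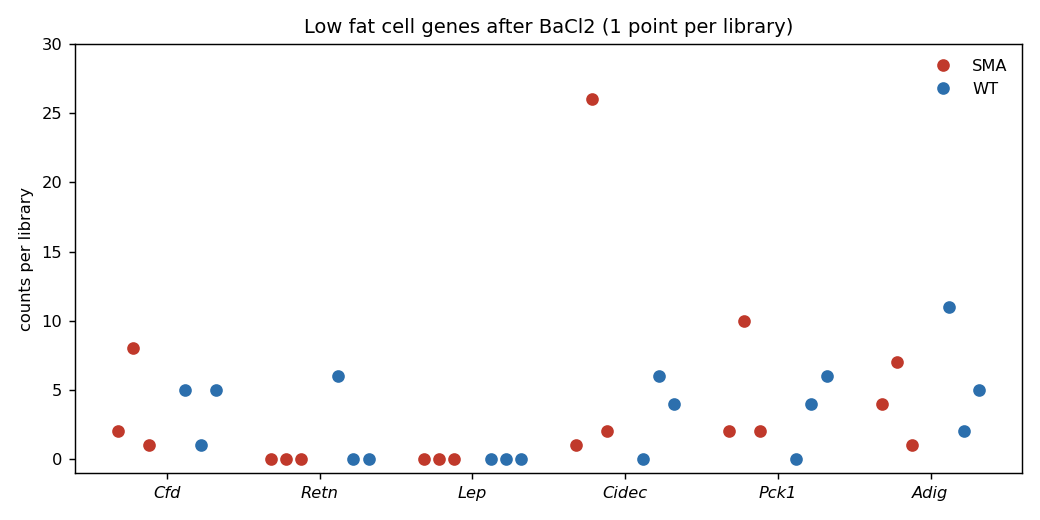
Read counts after BaCl2 of the 6 fat cell genes too low to test, 1 point per library, with the 3 SMA libraries left of the 3 WT libraries for each gene. All points are at 11 counts or lower except Cidec in SMA library 2, at 26, and Lep is at 0 throughout.

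Levels of different genes were compared per kilobase of exon (GENCODE vM21). After glycerol the order was Plin1, Car3 and Adipoq in both genotypes, with Plin4 last in SMA libraries, and neighbours in the order overlapped. Plin1 stood at 11.9 to 72.2 normalized counts per kb in SMA libraries and 2.35 to 25.1 in WT libraries. The place of Plin4 in WT libraries rests on its listed zeros. Its values of 9.05 and 8.22 in WT libraries 2 and 3 lay above the highest WT value of Adipoq (7.87). After BaCl2 the mean was highest for Plin1, at 0.172 CPM per kb in SMA libraries and 0.320 in WT libraries. Its WT range of 0.279 to 0.368 lay above that of Adipoq, the next gene (0.0743 to 0.164), whereas the SMA ranges of these genes overlapped. Lower neighbours overlapped in both genotypes.

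Some relatives of the members stood far higher and others did not. Plin2, the droplet coat found in nearly all cells, had 74.7 ± 11.3 CPM per kb in BaCl2 SMA libraries and 51.2 ± 5.19 in BaCl2 WT libraries, and after glycerol its medians were 6169 normalized counts per kb in SMA libraries and 3964 in WT libraries. Plin2 rose after BaCl2 (log2 fold change 0.54, edgeR adjusted p = 0.0250) and stood at 0.54 after glycerol (limma adjusted p = 0.0970). Pck2, the mitochondrial counterpart of Pck1, had 11.1 ± 1.20 CPM per kb in BaCl2 SMA libraries and 13.4 ± 0.856 in BaCl2 WT libraries (SD, n = 3 each). Cideb, a relative of Cidec known from liver, was as low as the members, with 0.0743 CPM per kb in BaCl2 SMA libraries and 0.112 in BaCl2 WT libraries, and so was Car2, with 0.0671 in BaCl2 SMA libraries and 0.0842 in BaCl2 WT libraries. The receptors of adiponectin were present and did not pass the test: Adipor1 stood at a log2 fold change of 0.23 after glycerol (limma adjusted p = 0.116) and 0.11 after BaCl2 (edgeR adjusted p = 0.261). Lepr, the leptin receptor, stood at -0.17 after glycerol (limma adjusted p = 0.736) and 0.52 after BaCl2 (edgeR adjusted p = 0.322).

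To compare the genotype effect between injuries, the difference was taken as the log2 fold change after glycerol minus that after BaCl2. For Car3 the difference was 2.45 (SE 0.67, z test adjusted p = 0.00637), from 2.09 after glycerol and -0.36 after BaCl2. For Plin1 it was 2.85 (SE 0.78, z test adjusted p = 0.00694), from 1.96 after glycerol and -0.89 after BaCl2. Adipoq (1.76, SE 0.85, adjusted p = 0.174) and Plin4 (3.05, SE 1.44, adjusted p = 0.162) did not pass. Thus 2 of the 4 members passed, both positive, where 10.5% of the 13960 genes passed (5.53% positive), and all 4 were positive, against 52.2% of all genes. These counts too hold only for the members listed after glycerol, which a high SMA group may have brought into the table (the Adipoq mean of 6.44 in WT libraries is under the lowest gene mean of the table, 7.79), so nothing is read from them about the 10 genes.

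The z test takes the standard errors of few libraries as known, so the 4 differences were also put to an exact two-sided permutation test. It relabelled the genotype within both injuries and was added after seeing the data. Its p is exact for no genotype effect after either injury, which is not the same as equal effects after both. On its log2(CPM + 0.1) scale after BaCl2, Car3 stood at -0.25 and Plin1 at -0.85, against -0.36 and -0.89 by edgeR. The permutation test gave p = 0.00571 for Car3, 0.00857 for Plin1, 0.06 for Adipoq and 0.183 for Plin4. These are unadjusted, and 0.00143 is the smallest possible. The tables were normalized separately, and the injury is the batch, so whether these differences belong to the injury cannot be told apart from the batch.

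**Figure D4:**
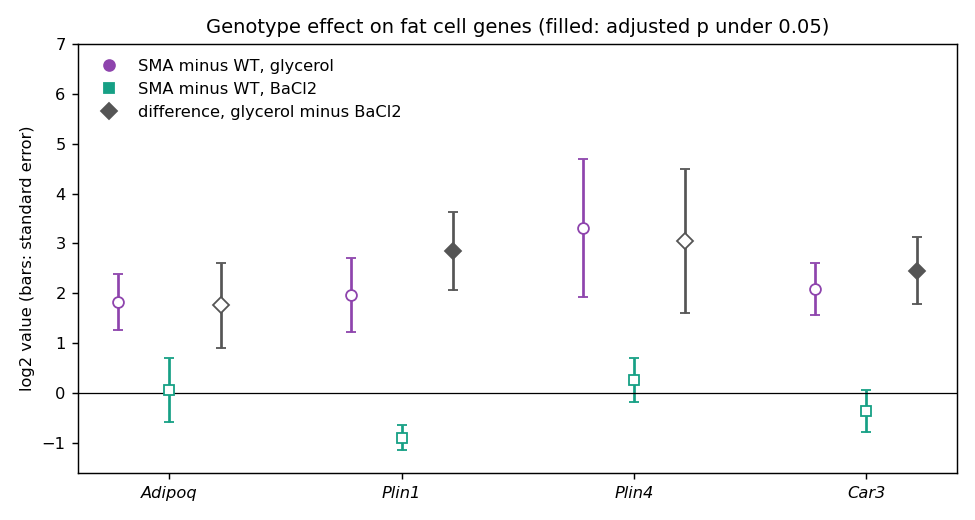
Log2 fold change of SMA against WT after glycerol (circles) and after BaCl2 (squares), and the difference of the 2 (diamonds), for the 4 tested fat cell genes, with standard errors and filled symbols for an adjusted p under 0.05. The only filled symbols are the differences of Plin1, at 2.85, and Car3, at 2.45.

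Other genes of fat cells moved in both directions after glycerol. Of 50 further adipocyte genes, 39 were listed after glycerol, of which 2 rose and 4 fell, where 2.87% of all genes were called (1.7% higher and 1.17% lower), with a median log2 fold change of 0.10 against -0.00 over all genes. Itih5 rose (0.65, limma adjusted p = 0.0309), as did Lpl, the lipase that brings fatty acids into the cell (0.44, limma adjusted p = 0.0454). The 4 that fell were Scd1, the desaturase (-0.46, limma adjusted p = 0.0299), Fabp4, the fatty acid carrier of fat cells and capillary endothelium (-0.58, limma adjusted p = 0.0317), Me1 (-0.26) and Fasn (-0.45), enzymes of fatty acid synthesis. These calls need nearly all the libraries. The list held 0 calls without SMA library 1, 2 or 4 or WT library 1, 2 or 3. It held 2 without WT library 4 and 12 without SMA library 3. Calls over all genes after glycerol moved as well, from 411 to between 0 and 1645 with 1 library left out. After BaCl2, 42 were tested, with a median of 0.03, and 2 rose, Plin2 and the fatty acid transporter Cd36 (0.85, edgeR adjusted p = 0.0451), a share close to the 4.29% of all genes called. Macrophages express both, and 8 of 9 macrophage markers rose in the same libraries, where 2.73% of all genes did. Macrophages were not tested as a source. The list held 0 calls after BaCl2 without SMA library 1 or 2 or WT library 2 or 3. It held 1 without WT library 1 and 5 without SMA library 3. Over all genes 863 were called after BaCl2, and 41 to 1577 with 1 library left out. Fabp4 stood at 0.24 after BaCl2 (edgeR adjusted p = 0.623) and Lpl at -0.27 (edgeR adjusted p = 0.0846). The genotype effect differed between injuries for 8 of the 39 genes by the z test, where 10.5% of all genes passed (5.53% positive and 5.0% negative). It was more positive after glycerol for Lpl (0.71), Trarg1 (1.54), G0s2 (1.16), whose product inhibits the main triglyceride lipase, and Itih5 (0.63), and more negative for Fasn (-0.61), Scd1 (-0.37), Fabp4 (-0.82) and Mgll, the monoglyceride lipase (-1.08).

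Of 23 factors that drive or restrain adipogenesis, all were tested after both injuries. After glycerol 2 rose, where 1.7% of all genes did, Nr1h3 (0.61, limma adjusted p = 0.0395) and Dlk1, a marker of progenitors that restrains fat cell formation (1.42, limma adjusted p = 0.0454). Cebpa stood at 0.50 (limma adjusted p = 0.0520) and Pparg at 0.55 (limma adjusted p = 0.134). After BaCl2 2 fell, where 1.56% of all genes did, Ebf1 (-0.40, edgeR adjusted p = 0.00950) and Cebpd (-0.47, edgeR adjusted p = 0.0175), while Cebpa stood at 0.03 and Pparg at -0.13. The list held 0 calls after glycerol when any 1 library but SMA library 3 was left out. It held 0 after BaCl2 if SMA library 2 or either of WT libraries 2 and 3 was left out. Calls over all genes ran from 0 to 1645 after glycerol and from 41 to 1577 after BaCl2 with 1 library left out. The difference between injuries passed for 9 factors in the positive direction, among them Egr2 (0.48), Zfp467 (0.81), Cebpa (0.47, z test adjusted p = 0.00865), Zfp521 (0.43) and Pparg (0.68, z test adjusted p = 0.0185), and for Gata2, which restrains adipogenesis, in the negative direction (-0.97), where 5.53% of all genes passed positive and 5.0% negative. These include factors that drive adipogenesis (Cebpa, Pparg and Zfp467) and factors that restrain it (Zfp521 and Dlk1). In the same z test 4 of the 10 FAP markers passed positive (Lum, Ly6a, Gsn and Dcn), and 7 of the 8 endothelial markers passed negative. The list medians were 0.41 for FAP markers, 0.31 for the factors and -1.40 for endothelial markers. The part of these cells in the differences of the factors and of the adipocyte genes was not tested.

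Among 16 receptors and partners of the members' products, C5ar2 rose after glycerol (1.19, limma adjusted p = 0.0440) and C3ar1 after BaCl2 (1.06, edgeR adjusted p = 0.00376). Each is 1 call of 16, where 2.87% of all genes were called after glycerol and 4.29% after BaCl2. The list held 0 calls after glycerol when any 1 library but SMA library 3 was left out and 4 without that library. After BaCl2 it held 1 to 2 calls with 1 library left out. Over all genes the same settings gave 0 to 1645 calls after glycerol and 41 to 1577 after BaCl2. Both are complement receptors that macrophages carry. Of 12 genes of brown and beige fat, 7 were tested after glycerol and 10 after BaCl2, and 0 passed by limma, by edgeR or in the z test of the difference. Without adjustment 2 of the 7 were under 0.05 after glycerol, 0 of the 10 after BaCl2 (DESeq2 also called 0) and 1 of 7 in the difference.

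**Figure D5:**
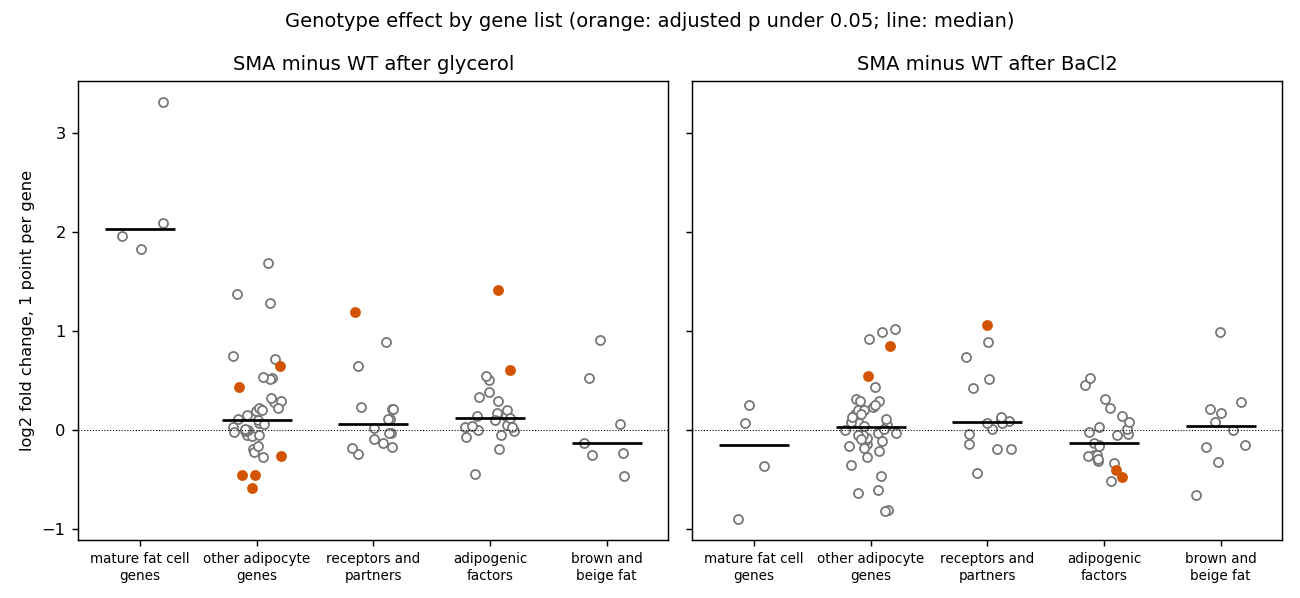
Log2 fold change of SMA against WT after glycerol (left) and after BaCl2 (right) for the tested genes of 5 lists, 1 point per gene, orange for an adjusted p under 0.05 and a line at the list median. The 4 mature fat cell genes lie between 1.83 and 3.31 after glycerol, where the 3.31 of Plin4 rests on its listed zeros. The other adipocyte genes have a median of 0.10 and reach 1.69 (Lgals12).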

How the data were processed

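For BaCl2, whole-number counts were used as deposited. For glycerol, the signal used is what the authors deposited as normalized counts, with a lowest mean of 7.79. At most 50.1% of its low values fell on whole steps (tolerance 0.1), so counts were not recovered. The authors also deposited log2 fold changes with their p-values. A set of 6 deposited columns of z scores, filled for 4026 genes, was not used. Fastp, Salmon, featureCounts and DESeq2 are named in the submitters' processing notes; the aligner, build and strand setting are not given in any source used. Libraries were poly(A)-selected and directional, per the labels.

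The plan had allowed for normalized glycerol values, so log2(value + 1) was fitted with limma 3.58.1 with a mean-variance trend over all listed genes. BaCl2 counts were fitted with edgeR 4.0.16 (TMM, filterByExpr, quasi-likelihood F test) in R 4.3.3. The difference of both log2 fold changes over its standard error was a z test on 13960 genes. P-values were adjusted by Benjamini and Hochberg over all genes, with 0.05 as the threshold. Single members were tested by exact permutation of log2(CPM + 0.1) or log2(value + 1), and the difference between injuries of a single member likewise over 1400 relabelings. The steps were tested on simulated data with known changes. The members and lists were chosen with earlier results of these data known. All 10 members were named, and up to 4 passing genes of each other list by smallest p, with Fasn and Dlk1 by the same rule. Pparg, Cebpa, Fabp4, Lpl, Plin2 and Pdgfra and the relatives of low members were always named. Adipor1 and Lepr, as receptors, Lgals12, Nnat and Apoc1, as adipocyte genes, and the single FAP markers were named after their values were seen. Symbols were matched exactly. Same-numbered SMA and WT libraries were not taken as pairs, as their deviations correlated at -0.126 to 0.087. Other scalings, filters, pseudocounts, DESeq2 1.42.0, a block and left-out libraries were tried.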

Additional observations from a re-analysis of the deposited data

Results flagged for a closer look

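Car3 and Plin1 were set apart because the genotype effect after glycerol differed from that after BaCl2 by the test of the difference itself. For Car3 the difference was 2.4544 on the log2 scale, with every glycerol SMA library above every glycerol WT library and overlapping groups after BaCl2. For Plin1 it was 2.854, with 3 of 4 glycerol SMA libraries above every glycerol WT library and every BaCl2 SMA library below every BaCl2 WT library. No group of 4 libraries held a value of the listed members that stood apart from the rest by Dixon's test.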

How the results depend on the processing

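The differences of Car3 and Plin1 between injuries kept their direction and passed under all 18 alternatives each. The z test adjusted p ran from 0.00156 to 0.0333 for Car3 and from 0.000782 to 0.0317 for Plin1. Of these alternatives 14 left out 1 library, and 4 changed the test, the filter, the pseudocount or the block. FAP-marker scaling was not run for the difference. The difference of Plin4 passed without glycerol WT replicate 2 (4.02, z test adjusted p = 0.0334). With single libraries left out, Adipoq after BaCl2 ran from -0.32 (without SMA replicate 2) to 0.51 (without SMA replicate 1), and was negative also without SMA replicate 3 (-0.12), WT replicate 1 (-0.15) or WT replicate 2 (-0.03), while Plin4 ran from -0.18 (without SMA replicate 2) to 0.56 (without SMA replicate 1) and was -0.02 without WT replicate 2, none passing. Of 176 recomputed member values 162 stayed on their side, 7 came to pass and 7 changed sign.

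Members called went from 0 to 1 after BaCl2 with DESeq2 or no low-count filter (Plin1), from 0 to 3 after glycerol with FAP-marker scaling, and were 2 to 3 for the difference with 1 library left out. Genes called after BaCl2 numbered 863, and 1700 with DESeq2, 1867 with no filter, 1407 with FAP-marker scaling and 41 to 1577 with 1 library left out. After glycerol they numbered 411, and 201 among genes above the median mean (which leaves out the 4 members), 2 with no trend and 0 to 1645 with 1 library left out. For the difference they numbered 1470, and 958 with DESeq2 and 1004 to 1969 with 1 library left out. The causes were not tested.

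With the replicate number as a block, which the labels do not tie to shared mice, 1144 genes were called after BaCl2, 257 after glycerol and 1940 for the difference; Adipoq after BaCl2 stood at -0.11, and Plin4 passed the difference (3.11, adjusted p = 0.0370). Depth limits the 6 low members, where 3 counts over a group are 0.00761 CPM or more.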

Other observations

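Some relatives of the members were listed very unequally in the separately made tables. C1qtnf5, of the same protein family as Adipoq, had 0 counts in all 6 BaCl2 libraries, while after glycerol it averaged 3888 ± 371 normalized counts in SMA libraries and 4124 ± 417 in WT libraries (SD, n = 4 each). Such a gene shows that a level in one table cannot be set beside the level in the other.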
